A study of Mus musculus with 6 samples.

Results

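The genes described here are 49 mouse genes for lysosomal hydrolases, cathepsins, lysosomal membrane proteins and the lysosomal proton pump, measured by RNA-seq in microglia of the rostral nucleus of the solitary tract (NST), the brainstem relay for taste. They were chosen by name, as a list of symbols matched to Ensembl identifiers, and all 49 were found among the 26789 genes of the table. The libraries were made from C57BL/6 mice on postnatal day 15 (P15). In the control group the dams ate standard chow throughout, and in the E3–E12 diet group they ate a low-sodium chow from E3 to E12 of gestation and standard chow afterward, so the pups themselves carried no allele or agent. There were 3 libraries per group, and the study's methods state that each was made from the pooled tissue of littermates of 1 litter, with microglia taken on magnetic beads against CD11b and the RNA amplified. The submitters' description instead names laser microdissection, which leaves the method of isolation unsettled. The libraries of the E3–E12 diet group are called diet libraries, and values given library by library stand in the order of replicates 1, 2 and 3. CD11b is shared by microglia and other myeloid cells, and a pooled litter gives no spread between its animals.

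The lysosome is the acidic compartment in which cells degrade material taken up by phagocytosis or delivered by autophagy. Its enzymes include cathepsins, which cut proteins, glycosidases and sulfatases, which take glycans apart, and lipid hydrolases. Membrane glycoproteins line it, transporters export the products, and a proton pump of the V-ATPase type keeps it acidic. Microglia, the resident phagocytes of the brain, are rich in lysosomes, and CD68, a lysosomal membrane protein, is used as a stain for their phagocytic activity, as in this study. Many lysosomal genes carry a short palindromic promoter element, the CLEAR element, that is bound by the transcription factor TFEB and its relatives.

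The core of that element, CACGTG, was searched on both strands of the RefSeq promoter windows of assembly GRCm38.p6, each of which runs from 250 bases before to 50 bases after the start of a gene. A window was matched by symbol for 43 of the 49 genes, and Ctsh, Npc1, Atp6v1h, Atp6v1b2, Ctsb and Asah1 were not matched. The core was in 16 of the 43 windows (37.2%), against 2187 of 27025 genes with a window (8.09%). With a T in front (TCACGTG, which contains the core) it was in 14 of the 43 (32.6%, against 4.29% of all genes), and the full palindrome TCACGTGA was in 7 (16.3%, against 1.12%). The following stretches hold the core, which most of the 43 windows lack. They come from a protease, an endopeptidase, membrane proteins, glycosidases and the proton pump, with the core in capitals and each read 5′ to 3′ on the strand of its gene.
Ctsd: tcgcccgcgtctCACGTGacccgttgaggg
Lgmn: tggaatgtctgtCACGTGgtccattttata
Lamp1: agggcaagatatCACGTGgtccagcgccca
Mcoln1: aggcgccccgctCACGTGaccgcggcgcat
Cln3: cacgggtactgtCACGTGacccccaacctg
Gla: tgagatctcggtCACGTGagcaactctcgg
Naglu: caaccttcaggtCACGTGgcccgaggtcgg
Atp6v1a: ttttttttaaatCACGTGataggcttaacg
In GRCm38.p6 these lie before the RefSeq start on which each window is set, for Ctsd at chr7:142387908-142387937 (minus strand), Lgmn at chr12:102439124-102439153 (minus strand), Lamp1 at chr8:13159088-13159117 (plus strand), Mcoln1 at chr8:3500462-3500491 (plus strand), Cln3 at chr7:126583340-126583369 (minus strand), Gla at chrX:134601182-134601211 (minus strand), Naglu at chr11:101070009-101070038 (plus strand) and Atp6v1a at chr16:44139373-44139402 (minus strand). For 6 of the 8 genes, all but Lamp1 and Gla, the stretch falls wholly or partly within the span that the GENCODE annotation gives the gene.
Lamp1 held the core 4 times in its window, and Cln3, Ctsd, Ctsa, Gla and Mcoln1 each held it 2 times. A match in this window is a description of the letters there and not of a bound site. The 16 genes with the core had a median log2 fold change between diets of 0.022 (8 with a higher and 8 with a lower mean under the diet), and the 27 genes with a window but without it had a median of -0.091 (11 higher, 16 lower).

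Among the lysosomal genes no difference between diets was found that exceeded the spread between libraries. The study compared the diets with DESeq2 at an adjusted p under 0.1 and lists genes in both directions. The deposited values are normalized counts, so that test was not repeated, and the fit below neither supports nor refutes its calls. Limma was run on log2(normalized count + 1) with Benjamini-Hochberg adjustment over the 18007 genes that averaged 10 or more normalized counts. In that fit, 0 of the 49 genes passed the adjusted threshold of 0.1, where 0 of all genes tested passed (0.0%), and the smallest adjusted p of a lysosomal gene was 0.999. At an unadjusted p under 0.05 the count was 0 of 49, against 327 of 18007 (1.82%), of which 171 (0.95%) were higher and 156 (0.866%) lower under the diet. When limma weighted each library by its own spread, 2 of the 49 genes (Ctns and Gla) had an unadjusted p under 0.05 and 0 passed the adjusted threshold. Those weights also raised the share of all genes tested with an unadjusted p under 0.05, to above the share of the 49. The groups did not overlap in 1 of the 49 genes, Ctsk, which is 2.04% of them, against 1062 of all genes tested (5.9%). Ctsk was lower under the diet, as were 524 of those 1062 genes (2.91% of all), and the other 538 (2.99%) were higher. All 49 genes passed the filter on low values, and none was listed at 0 in any library, the lowest value being 4.50 normalized counts of Ctsk in E3–E12 diet replicate 2.

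The log2 fold changes of the 49 genes ran from -1.05 (Ctsk) to 0.93 (Atp6v1a), with a median of -0.091 beside 0.087 over all genes tested. On this scale 20 genes had a higher and 29 a lower mean under the diet, and a higher or lower mean below always refers to the mean of log2(normalized count + 1). That split depended on the scaling, since with the library totals made equal, or with quantile normalization, it was 26 higher and 23 lower. For 40 of the 49 genes the fold change was under 0.5 in size, and for 4 it was larger than its own standard error. The share of all genes tested with a fold change larger than its standard error was 29.4%. The standard error had a median of 0.71 for the lysosomal genes and 0.85 over all genes. The 95% confidence intervals of all 49 genes held 0. For 29 of them the interval lay wholly within 2 on the log2 scale, so a 4-fold difference in either direction was outside it, and for the other 20 a 4-fold difference in 1 direction or both was not excluded by these libraries. The labels do not say that the libraries of a group came from separate litters, though the study's methods do, and the p-values measure the spread between these libraries.

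**Figure D1:**
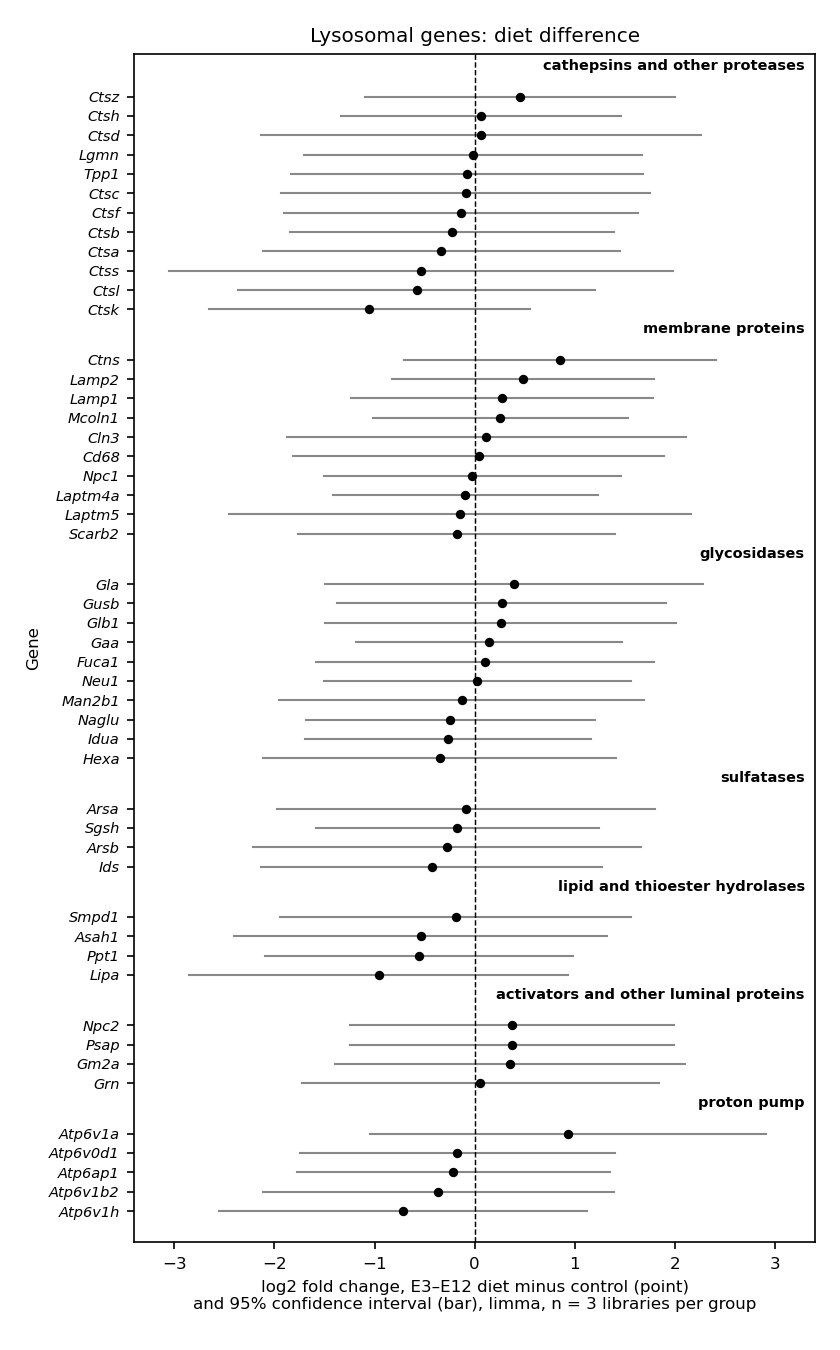
Log2 fold change (E3–E12 diet minus control, on the log2(normalized count + 1) scale, horizontal axis) of each of the 49 lysosomal genes (vertical axis, grouped by role), with points for the limma estimate and bars for its 95% confidence interval, n = 3 libraries per group. Every bar crosses 0; the points run from -1.05 for Ctsk to 0.93 for Atp6v1a.

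The cathepsins and other proteases were the largest set, with 3 of 12 genes higher and 9 lower in mean under the diet (median log2 fold change -0.11). The direction turned with the scaling, to 6 higher and 6 lower with equal totals or quantile normalization and 9 higher and 3 lower with each library centred on 13 microglia markers. That centring moved the median over all genes tested to 0.47, beside 0.27 for these 12. Ctsd (ENSMUSG00000007891, GRCm38 chr7:142375911-142388038, minus strand) encodes the main aspartic protease of the lysosome. It read 17497, 102276 and 52479 normalized counts in the controls against 21444, 49379 and 100441 in the diet libraries. Its lowest library in both groups was replicate 1, and the groups overlapped almost completely (log2 fold change 0.060, 95% confidence interval -2.14 to 2.26). Without control replicate 2 its log2 fold change was 0.64 and without control replicate 1 it was -0.63. Ctsa, a carboxypeptidase that also protects beta-galactosidase and neuraminidase in the lumen, read 6447, 23582 and 9974 in the controls against 5020.3, 12196 and 12379.8 in the diet libraries, again with replicate 1 lowest in each group (log2 fold change -0.33, 95% confidence interval -2.12 to 1.45). Ctsl, a cysteine cathepsin, read 1369, 2745 and 4469 in the controls against 875, 2633 and 2190.1 in the diet libraries. The diet libraries of Ctsl lay toward the low end of the range and still overlapped the controls (log2 fold change -0.58, 95% confidence interval -2.36 to 1.21).

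Ctsk (ENSMUSG00000028111, GRCm38 chr3:95499256-95509362, plus strand), a cysteine cathepsin best known for degrading collagen in osteoclasts, was the gene without overlap. Its normalized counts were 31.8, 13.8 and 12.5 in the controls against 9.06, 4.50 and 12.3 in the diet libraries. The highest E3–E12 diet value lay just under the lowest control value, so the gap between the groups was much smaller than the spread within either. The log2 fold change was -1.05 (95% confidence interval -2.65 to 0.55). An exact permutation test, two-sided, gave p = 0.1, the lower bound for groups of 3, as it does for any gene without overlap. Without control replicate 1 the log2 fold change was -0.65. Ctsk was also the gene of the list with the lowest normalized counts.

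The remaining proteases had log2 fold changes between -0.54 (Ctss, a cysteine cathepsin that is a marker of microglia) and 0.45 (Ctsz, a carboxypeptidase). Ctss varied most among all 49 genes, with 10.9-fold between its highest and lowest library. Within that range lay both diets, and the 95% confidence interval of Ctss ran from -3.05 to 1.98. Lgmn, the asparagine endopeptidase that activates cathepsins, and Tpp1, a tripeptidyl peptidase, had log2 fold changes of -0.015 and -0.078. For Ctsb, Ctsc, Ctsf and Ctsh the values were -0.23, -0.091, -0.13 and 0.066. Part of these values is uncertain, because 32.4% of the 50-base windows of the Ctsd exons, 26.3% of those of Ctsl, 12.1% of Ctsb and 11.6% of Ctsa also occur in, or overlap, another annotated gene.

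Of the 10 membrane proteins 6 had a higher and 4 a lower mean under the diet (median log2 fold change 0.078). With equal totals or quantile normalization 8 were higher and 2 lower, and with centring on the microglia markers all 10 were higher. That centring raised genes in general, to a median of 0.47 over all genes tested, beside 0.46 for these 10. Cd68 (ENSMUSG00000018774, GRCm38 chr11:69664213-69666153, minus strand), the stained marker, read 1760.4, 3984 and 5700.4 normalized counts in the controls against 1637, 5328 and 4971 in the diet libraries. Both groups held 1 low library, replicate 1, and a pair of higher ones, and their means were 3815 ± 1975 in controls and 3979 ± 2036 in E3–E12 diet mice (SD, n = 3 libraries each). The log2 fold change of Cd68 was 0.039 (95% confidence interval -1.81 to 1.89, exact permutation test p = 1.0, two-sided). That interval does not show equal levels, since it holds differences of more than 3-fold either way. Laptm5, a lysosomal membrane protein of cells of the blood lineage, microglia included, read 8051, 14768 and 32022 in the controls against 4339.9, 19151 and 33657 in the diet libraries. It spanned 7.76-fold over the libraries, and its lowest and its highest value were both in the E3–E12 diet group (log2 fold change -0.15, 95% confidence interval -2.46 to 2.16).

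Lamp1 and Lamp2 encode the most abundant glycoproteins of the lysosomal membrane. Lamp1 read 3836, 7743 and 7426 normalized counts in the controls against 4735, 7806 and 10556 in the diet libraries (log2 fold change 0.27, 95% confidence interval -1.23 to 1.78). Lamp2 read 4991, 5618 and 5991 in the controls against 5617, 8876 and 9291 in the diet libraries. Lamp2 was among the steadiest genes of the list, with 1.86-fold between its highest and lowest library. Of its diet libraries 2 lay above every control and the third within the controls (log2 fold change 0.49, 95% confidence interval -0.82 to 1.80). Ctns, the exporter of cystine, read 1061, 913 and 621 in the controls against 871, 2671 and 1525 in the diet libraries. E3–E12 diet replicates 2 and 3 lay above all controls and replicate 1 lay among them (log2 fold change 0.85, 95% confidence interval -0.71 to 2.41). The direction of Ctns held with each library left out in turn, between 0.45 and 1.26.

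Other transporters and receptors of the membrane differed by less. Mcoln1, the lysosomal cation channel TRPML1, was the steadiest of the 49 genes, with 1.52-fold between its extremes and a log2 fold change of 0.26 (95% confidence interval -1.01 to 1.53). Npc1, which exports cholesterol from the lysosome, had -0.022, and Scarb2, the carrier of beta-glucocerebrosidase, had -0.18. Cln3 and Laptm4a had log2 fold changes of 0.12 and -0.091.

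The glycosidases had 6 genes with a higher and 4 with a lower mean under the diet (median log2 fold change 0.065), and all 10 were under 0.5 in size. With centring on the microglia markers all 10 were higher, with a median of 0.45, beside 0.47 over all genes tested. Man2b1, the lysosomal alpha-mannosidase, read 5254, 18835 and 11287 normalized counts in the controls against 5075, 10226 and 16414 in the diet libraries (log2 fold change -0.13, 95% confidence interval -1.95 to 1.69). Gusb, beta-glucuronidase, read 796, 2991 and 1971 in the controls against 1629, 2453 and 2068 in the diet libraries (log2 fold change 0.27, 95% confidence interval -1.37 to 1.92). In both genes the controls ranged from below to above all E3–E12 diet libraries or nearly so, and control replicate 2 was the highest library. The largest difference of the set was in Gla, alpha-galactosidase A, at 0.40, which became 1.11 without control replicate 2. The lowest was Hexa, the alpha subunit of beta-hexosaminidase, at -0.35, with 0.22 when control replicate 2 was left out. Glb1, Gaa, Naglu, Neu1, Fuca1 and Idua lay between -0.26 (Idua) and 0.26 (Glb1).

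All 4 sulfatases had a lower mean under the diet, with a median log2 fold change of -0.22 and none over 0.5 in size. With equal totals 3 were lower, and with centring on the microglia markers 1 was. Arsb, arylsulfatase B, read 7427, 42170.4 and 23506 normalized counts in the controls against 11977, 13574 and 25544 in the diet libraries (log2 fold change -0.28, 95% confidence interval -2.22 to 1.67). Without control replicate 2, its highest library, the log2 fold change of Arsb was 0.28, and 38.5% of the 50-base windows of Arsb match or overlap a different annotated gene. Ids, iduronate 2-sulfatase, read 2752, 7237 and 4761 in the controls against 3359, 1887 and 6145 in the diet libraries (log2 fold change -0.43, 95% confidence interval -2.13 to 1.28). Arsa and Sgsh, which act on sulfatide and heparan sulfate, had log2 fold changes of -0.085 and -0.17. Of their 50-base windows 15.8% and 18.5% match or overlap a different annotated gene.

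The 4 lipid and thioester hydrolases had the lowest median of the roles, -0.55, and all 4 had a lower mean under the diet. With equal totals or quantile normalization all 4 stayed lower, and with centring on the microglia markers 3 did. Lipa, lysosomal acid lipase, which frees cholesterol and fatty acids from esters, read 873, 4016 and 1563 normalized counts in the controls against 514, 1463 and 994 in the diet libraries. Control replicate 2 stood far above the other 5 libraries, and the groups overlapped (log2 fold change -0.96, 95% confidence interval -2.85 to 0.94). Without that library the log2 fold change of Lipa was -0.36. Asah1, acid ceramidase, read 742, 4029 and 1700 in the controls against 917, 1053 and 1709.6 in the diet libraries. Its log2 fold change of -0.54 (95% confidence interval -2.40 to 1.32) became 0.074 without control replicate 2. Ppt1, a thioesterase that removes palmitate from proteins, read 1271, 2066 and 2288 in the controls against 761, 1183 and 2117 in the diet libraries (log2 fold change -0.55, 95% confidence interval -2.09 to 0.99). Smpd1, acid sphingomyelinase, had -0.19. The lower means of Asah1 and Smpd1 therefore rested on 1 control library, and those of Lipa and Ppt1 kept their direction without it.

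The 4 activators and other luminal proteins all had a higher mean under the diet, with a median of 0.36, and were also higher under the 3 other scalings. Equal totals and centring raised the fold change of every gene by about the same amount, so they could not have turned these 4 lower. Psap, the precursor of the saposins that help lipid hydrolases, read 4992, 17591 and 13449 normalized counts in the controls against 11829, 13429 and 16174 in the diet libraries (log2 fold change 0.37, 95% confidence interval -1.24 to 1.99). The diet libraries of Psap lay close together and inside the range of the controls. Grn, progranulin, read 4902, 25276 and 10419 in the controls against 9524, 12938 and 11829 in the diet libraries, also inside the range of the controls (log2 fold change 0.058, 95% confidence interval -1.72 to 1.84). On the linear scale the mean of Grn was lower in E3–E12 diet mice, with 13532 ± 10538 in controls and 11430.4 ± 1741 in E3–E12 diet mice (SD, n = 3 libraries each). Gm2a and Npc2, carriers of ganglioside and cholesterol, had 0.35 and 0.37. In all 4 genes control replicate 1 was the lowest library. Without it the log2 fold changes were -0.17 for Psap, -0.52 for Grn, -0.16 for Gm2a and 0.0033 for Npc2.

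Of the 5 proton pump genes 1 had a higher and 4 a lower mean under the diet (median log2 fold change -0.21). The split stayed at 1 and 4 with equal totals or quantile normalization and turned to 4 higher and 1 lower with centring on the microglia markers. Atp6v1a, the catalytic subunit of the pump, read 1652, 311 and 1834 normalized counts in the controls against 1855, 1665 and 2136 in the diet libraries. Control replicate 2 was far below the other 5 libraries, which lay close together (log2 fold change 0.93, 95% confidence interval -1.04 to 2.91). Without that library the log2 fold change was 0.11. Atp6ap1, an accessory subunit, read 2862, 2826 and 2887 in the controls against 1201, 3809 and 3287 in the diet libraries. The controls of Atp6ap1 were nearly equal and lay between E3–E12 diet replicate 1 and the other two (log2 fold change -0.21, 95% confidence interval -1.78 to 1.35). Atp6v1h, a regulatory subunit, read 66.6, 164 and 100 in the controls against 34.0, 149 and 47.3 in the diet libraries, with overlap (log2 fold change -0.72, 95% confidence interval -2.56 to 1.12). Atp6v0d1 and Atp6v1b2 had log2 fold changes of -0.17 and -0.36.

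**Figure D2:**
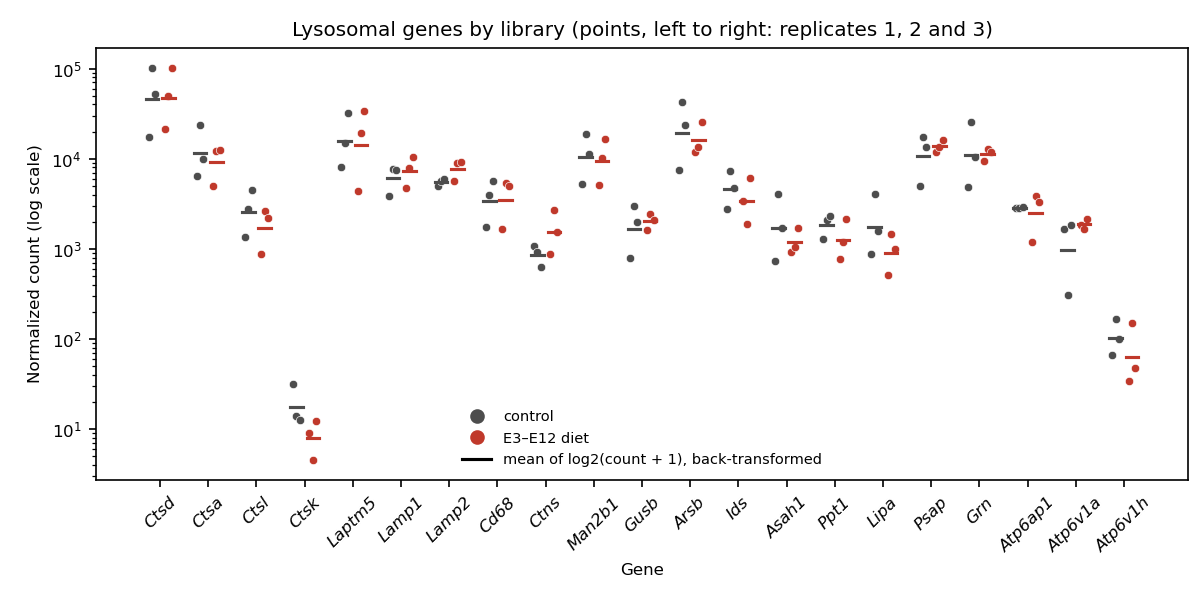
Normalized counts (vertical axis, log scale) of the 21 lysosomal genes given library by library, with 1 point per library (grey control, red E3–E12 diet, replicates 1, 2 and 3 from left to right) and a bar at each group's mean of log2(count + 1), back-transformed. The groups overlap in 20 of the 21 genes; Ctsk is the gene without overlap, and control replicate 2 is the low point of Atp6v1a and the high point of Lipa.

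The libraries differed from each other in these genes more than the diets did. Relative to each gene's mean over the 6 libraries, on the log2 scale, the median lysosomal gene lay at -0.67, 0.64 and 0.10 in the controls, and at -0.50, 0.17 and 0.42 in the diet libraries. Control replicate 1 was below the gene's own mean in 42 of the 49 genes and E3–E12 diet replicate 1 in 46, against 7 in control replicate 2 and 7 in E3–E12 diet replicate 3. One or the other of these low libraries held the lowest value in 42 of the 49 genes (23 in control replicate 1, 19 in E3–E12 diet replicate 1), and control replicate 2 held the highest in 28. Over all genes tested the order was different, with the lowest value in control replicate 2 for 38.2% of genes, in control replicate 1 for 12.6% and in E3–E12 diet replicate 1 for 16.5%. With library totals made equal the median lysosomal gene lay at -0.35, 0.13 and 0.12 in the controls, and at -0.14, 0.28 and 0.13 in the diet libraries, and with quantile normalization at -0.40, 0.060 and 0.19 in the controls, and at -0.27, 0.20 and 0.22 in the diet libraries, so the same libraries, both numbered 1, were lowest under each of the 3 scalings. The split of the 49 genes moved with them, from 20 higher and 29 lower to 8 and 41 without control replicate 1, 35 and 14 without control replicate 2, and 34 and 15 without E3–E12 diet replicate 1. The number of genes without overlap, 1 of 49 with all libraries, was 7, 3 and 2 without control replicates 1, 2 and 3 and 6, 4 and 2 without E3–E12 diet replicates 1, 2 and 3, where fewer libraries make overlap less likely. The shares over all genes tested in those fits are not reported here, so these counts are not read as a result about the lysosomal genes.

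**Figure D3:**
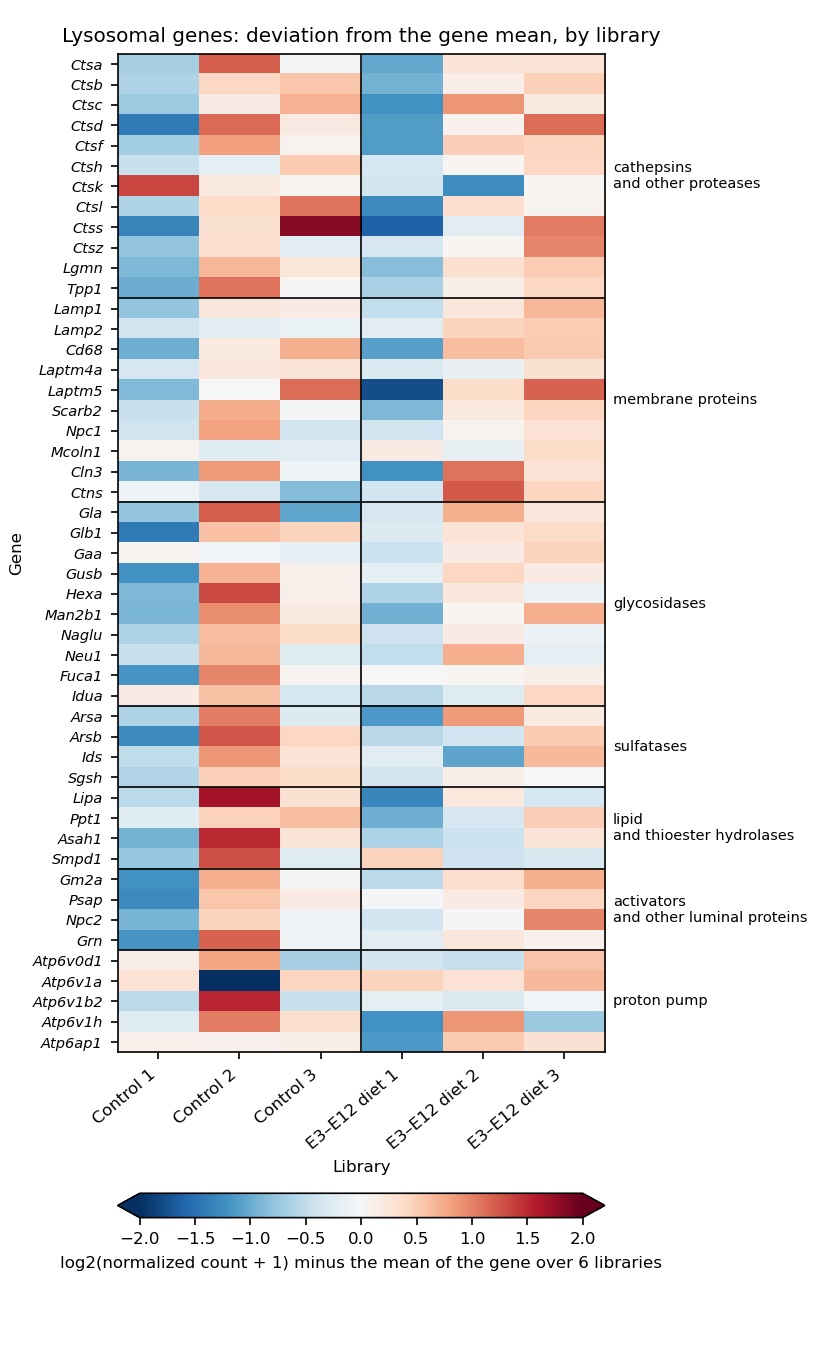
Deviation of log2(normalized count + 1) from the gene's mean over the 6 libraries (colour, blue lower and red higher, saturating at 2) for the 49 lysosomal genes (vertical axis, by role) in each library (horizontal axis). The columns of control replicate 1 and E3–E12 diet replicate 1 are mostly blue, with 42 and 46 genes below their mean, and that of control replicate 2 is mostly red, with 7 below.

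Together the lysosomal genes took 1.21%, 2.23% and 2.25% (controls) and 1.40%, 2.15% and 2.37% (diet libraries) of the normalized counts of the libraries, 1.90 ± 0.594% in controls and 1.97 ± 0.510% in E3–E12 diet mice (SD, n = 3 libraries each). The difference between the means was a fraction of either SD. Ctsd alone made up between 14.9% and 28.9% of these counts, and Ctsd, Arsb, Laptm5, Psap and Grn together between 36.6% and 54.0%. Without the mitochondrial ribosomal RNAs in the total the shares were 2.12 ± 0.665% and 2.22 ± 0.655%.

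Markers of microglia moved with this pattern. A list of 13 microglia markers outside the lysosomal lists, among them Cx3cr1, P2ry12, Tmem119 and Csf1r, took 1.05%, 3.0% and 2.01% in the controls against 1.10%, 2.07% and 2.10% in the diet libraries of the normalized counts. Their median deviation lay at -1.03, 1.11 and 0.51 in the controls, and at -1.12, 0.076 and 0.49 in the diet libraries, so the same libraries were lowest in both lists. All 13 had a lower mean under the diet, with a median log2 fold change of -0.28, but this direction rested on control replicate 2. Without that library 10 of the 13 were higher and 3 lower, with a median of 0.23, and without control replicate 1 all 13 stayed lower, with a median of -1.03. Of them 1, Tyrobp, an adaptor of TREM2, had an unadjusted p under 0.05, and it was listed at 0 in all 3 E3–E12 diet libraries, with 182, 59.5 and 1494 in the controls, while the other 12 were above 0 in every library. Whether the zeros of Tyrobp come from counting or annotation was not tested. The ratio of the lysosomal to the microglia marker counts was 1.16, 0.743 and 1.12 in the controls against 1.27, 1.04 and 1.13 in the diet libraries, which is 1.01 ± 0.228 in controls and 1.15 ± 0.118 in E3–E12 diet mice (SD, n = 3 libraries each). When each library was centred on those markers, an alternative added after the data were seen, 41 of the lysosomal genes were higher and 8 lower under the diet, with a median of 0.29, and the median over all genes moved to 0.47. At an unadjusted p under 0.05 limma then called 0 of the 49, against 119 of the 18007 genes tested. In whole-population RNA, fewer cells of a type and less RNA per cell cannot be told apart.

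Markers of other cells moved between libraries as well. The 7 oligodendrocyte markers took 0.446%, 0.0996% and 0.0423% in the controls against 0.177%, 0.212% and 0.0404% in the diet libraries, with 5 of 7 lower in mean under the diet and Mag listed at 0 in 4 libraries. The 7 markers of border-associated macrophages, which also hold lysosomes, took 0.0622%, 0.122% and 0.0698% in the controls against 0.0600%, 0.0837% and 0.0672% in the diet libraries. Of these 6 had a lower mean under the diet, and Pf4 was lower without overlap. Without control replicate 2 the log2 fold changes turned to 0.14 for Mrc1, 0.61 for Lyve1, 0.16 for Cbr2 and 0.17 for F13a1. Pf4 and Cd163 stayed lower, at -2.93 and -0.13. Summed by list, astrocyte, endothelial and neuronal markers were lowest in control replicate 2, where they took 0.0101%, 0.0309% and 0.00362%, against at least 0.0347%, 0.0826% and 0.00560% in every other library. Gene by gene this held for 6 of 7 astrocyte, 5 of 8 endothelial and 5 of 8 neuronal markers, while Pecam1, Cldn5 and Gad1 were highest in control replicate 2. The neutrophil and monocyte markers, also of CD11b+ cells, were highest there when summed, at 0.0180% against 0.00387% to 0.00776% in the other libraries. Of the 5 that passed the filter 4 were highest in control replicate 2. The other, Ccr2, was highest in E3–E12 diet replicate 2, at 190 normalized counts against 95.1 in control replicate 2. Choroid plexus and ependyma markers, when summed, ran from 0.00110% in E3–E12 diet replicate 2 to 0.424% in E3–E12 diet replicate 1. Most of that range was Ttr, at 3.37 and 38517 normalized counts in those libraries. Of the 6 markers 5 were highest in E3–E12 diet replicate 1, and Ccdc153 was highest in control replicate 2. Erythroid markers were at most 0.00184% in any library, and markers of mural cells and fibroblasts ran from 0.00960% in control replicate 2 to 0.180% in E3–E12 diet replicate 1. In control replicate 2, Gfap, Aldh1l1, Ly6c1, Syt1, Rbfox3, Stmn2 and Slc32a1 were listed at 0. Control replicate 2 also had the most genes listed at 0, 10640 against between 3459 and 7135 elsewhere, and the highest total, 17204618 normalized counts against 9407141 to 14656956. The part of these marker and library differences in the lysosomal values was not tested.

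**Figure D4:**
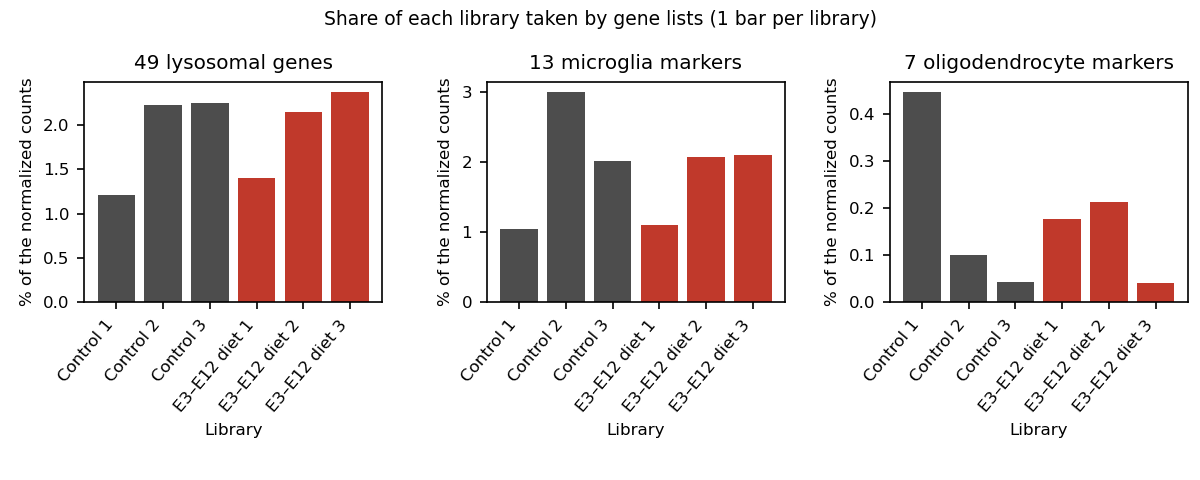
Percent of each library's normalized counts (vertical axes, each from 0) in the 49 lysosomal genes, the 13 microglia markers outside the lysosomal lists and the 7 oligodendrocyte markers, with 1 bar per library (grey control, red E3–E12 diet). Lysosomal genes and microglia markers are both lowest in control replicate 1 and E3–E12 diet replicate 1; oligodendrocyte markers are highest in control replicate 1, at 0.446%.

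The order of levels among the genes was compared per kilobase of exon. Ctsd was highest in each of the 6 libraries, with a mean of 24353 normalized counts per kb, and Ctsk and Atp6v1h were the lowest pair in each, with means of 9.25 and 9.61. After Ctsd came Laptm5 (4927 per kb), Psap (4705), Lgmn (3768), Ctss (3648), Grn (3593), Arsb (3429) and Cd68 (3100.2). Neighbours in this order mostly changed places between libraries, as 3 of 48 neighbouring pairs kept their order in all 6. Wider steps held, since Ctsd exceeded Ctsb by 7.64- to 21.8-fold per kb in 6 of 6 libraries and Lamp1 exceeded Lamp2 by 2.74- to 4.92-fold in 6 of 6. Cd68 exceeded Lamp1 in 4 of 6 libraries and so was not separated from it.

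**Figure D5:**
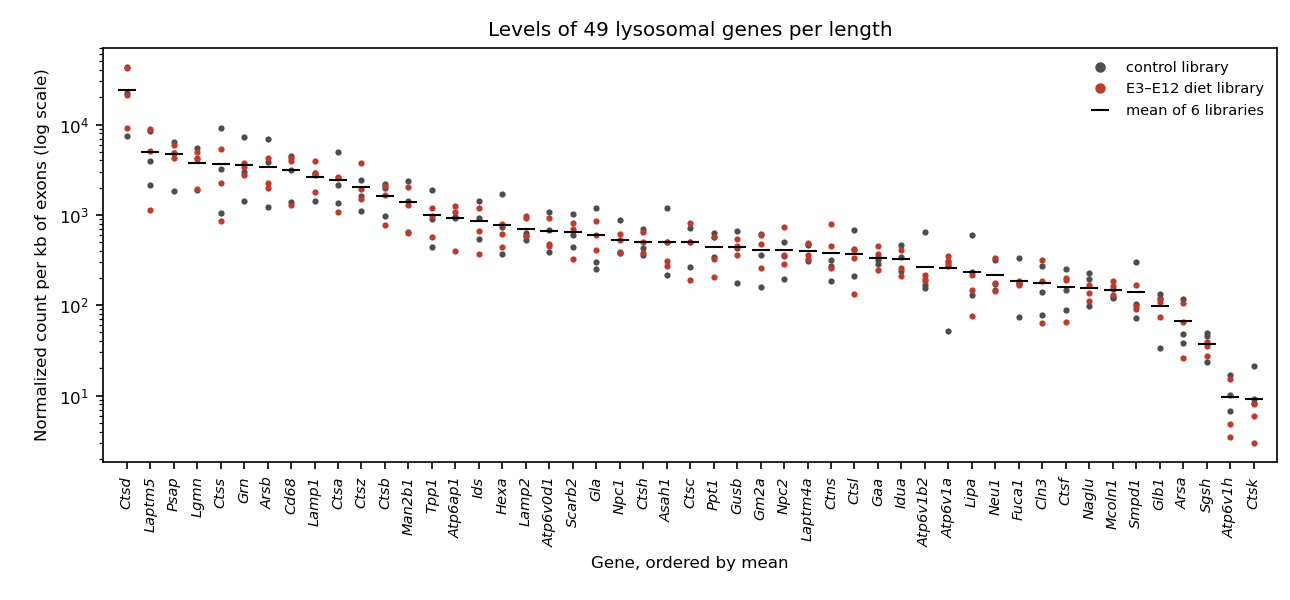
Normalized counts per kb of exon (vertical axis, log scale) of the 49 lysosomal genes, ordered by their mean over the 6 libraries (horizontal axis), with 1 point per library (grey control, red E3–E12 diet) and a bar at the mean. Ctsd stands above all others in every library, Ctsk and Atp6v1h lie at the bottom, and the points of neighbouring genes overlap.

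A further 77 lysosomal genes outside the list were read from the same fit, and 75 passed the filter. Of these 41 had a higher and 34 a lower mean under the diet (median log2 fold change 0.039), 0 passed the adjusted threshold, and 2 had an unadjusted p under 0.05 (2 of 75, against 1.82% of all genes). The groups did not overlap in 4 of them (5.33%, against 5.9%), all higher in E3–E12 diet mice. One was Tmem192, a lysosomal membrane protein, with 25.2, 12.8 and 81.9 normalized counts in the controls against 93.5, 212 and 167 in the diet libraries (log2 fold change 2.27, 95% confidence interval 0.30 to 4.25). Among the others were Abcb9, a peptide transporter, at 0.73, and Cst6, a cystatin, at 1.10. With 1 library left out in turn these ran from 0.43 to 0.88 and from 0.50 to 1.44, lowest without E3–E12 diet replicate 2 for Abcb9 and without E3–E12 diet replicate 1 for Cst6. For Tmem192, Abcb9 and Cst6 alike an exact permutation test, two-sided, gave p = 0.1. Any gene without overlap between groups of 3 gives that value, so it adds nothing to the lack of overlap.

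Cst7, which encodes cystatin F, an inhibitor of cathepsins, read 0.775, 0 and 26.1 normalized counts in the controls against 79.8, 24.7 and 103 in the diet libraries. All but E3–E12 diet replicate 2 lay above the highest control, and that library lay just below control replicate 3. Because 1 control was listed at 0, its fitted log2 fold change of 4.04 (95% confidence interval 0.84 to 7.24) depends on the pseudocount. Dpp7 (a hydrolase), Atp6v1d (a pump subunit), Igf2r (a receptor that sorts enzymes to the lysosome) and Tfec (a relative of TFEB) had the smallest unadjusted p of their lists, with log2 fold changes of 1.12, 0.99, -1.51 and -1.86. None of these 4 had an unadjusted p under 0.05. With 1 library left out in turn the values ran from 0.33 to 1.86 for Dpp7, from -2.74 to -0.073 for Igf2r and from -3.24 to -0.32 for Tfec. Without control replicate 2, Dpp7 was at 0.33 and Igf2r at -0.073, and without E3–E12 diet replicate 2, where it was listed at 0, Tfec was at -0.32. Tfeb read 230.3, 269.5 and 469 in the controls against 231, 208 and 609 in the diet libraries, with a 95% confidence interval of -1.63 to 1.64 around its log2 fold change.

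By list, the other hydrolases had 11 of 23 genes higher and 12 lower in mean under the diet, the other membrane proteins 7 and 9 of 16 and the other pump subunits 9 and 5 of 14. The genes for enzyme sorting and modification had 9 and 5 of 14, the cystatins 3 and 1 of 4, and the factors related to TFEB 2 and 2 of 4. Their medians were -0.011, -0.082, 0.11, 0.16, 1.04 and -0.11 in the same order.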

How the data were processed

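RNA-seq libraries of P15 rostral NST microglia from 3 control and 3 E3–E12 diet groups of pups were grouped by the sample titles. The authors deposited 1 table of normalized counts per gene (a signal, not raw counts); per the labels the submitters used FastQC, STAR, featureCounts and DESeq2 with build GRCm38, without versions or roles. The table's name mentions surrogate variables, and 1 read was not worth the same for every gene, so whole reads were not recovered. The depth behind each value is therefore known only roughly. The normalized counts summed to between 9407141 and 17204618 per library, but these sums do not rank the libraries by depth. Judged from genes above 0 in 1 library only, 1 read was worth about 0.535 (control replicate 3) to 2.00 (control replicate 2) normalized counts. By that estimate control replicate 3 had the most reads. Control replicate 2, with the highest sum, had fewer than any library except E3–E12 diet replicate 1. Of 26789 genes, 26507 were matched to a symbol.

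Values were compared with limma 3.58.1 in R 4.3.3 on log2(normalized count + 1), two-sided, for the 18007 genes averaging 10 or more, with Benjamini-Hochberg adjustment and a threshold of 0.1. The steps were tested on simulated data. A fold change on this scale understates that of low genes. Exon lengths, positions and the 50-base windows shared with other genes came from a GENCODE annotation of GRCm38, and promoter windows from RefSeq. The members and all lists were chosen with earlier results of these data known. Values per library were given for the 2 highest members of each role, the 8 with the smallest unadjusted p, members without overlap or listed at 0 (none was), and Cd68. From the other lysosomal lists came the gene with the smallest unadjusted p in each, genes without overlap, and Tfeb; some genes that this rule names are not reported here. The other members are described by their fold changes, and those singled out for the size of their difference or spread, or placed side by side by level, were chosen after their values were seen. Alternatives changed the pseudocount, filter, scaling, weights, variance trend, replicate block and set of libraries.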

Additional observations from a re-analysis of the deposited data

How the results depend on the processing

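Under every alternative run, 0 of the 49 lysosomal genes passed the adjusted threshold with limma. Over all genes, 0 passed under each of them except array weights, which gave 5. Genes with an unadjusted p under 0.05, 327 in the reported fit, numbered 156 with a filter at a mean of 100, 491 with quantile normalization, 1205 with array weights, 119 with each library centred on the microglia markers (an alternative chosen after seeing the data), and 276 to 551 with 1 library left out. Lysosomal genes with an unadjusted p under 0.05, 0 as reported, numbered 2 with array weights (Ctns and Gla, smallest adjusted p = 0.716) and 0 otherwise. Lysosomal genes without overlap, 1 as reported, numbered 0 with the filter at 100, which removes Ctsk, 3 with quantile normalization, 3 with equal totals, 2 with centring, and 2 to 7 with 1 library left out. The shares without overlap over all genes in those fits are not reported here, so these counts describe the fits only. The median log2 fold change of the lysosomal genes ran from -0.46 (without control replicate 1) to 0.29 (centred). With equal totals the median over all genes was 0.20. Array weights gave 31 higher and 18 lower.

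The replicate numbers shared by the groups do not mark a common litter or day in the labels, and the deviations of same-numbered libraries correlated at 0.260, 0.0348 and 0.142 over genes, so they were not taken as pairs. With the replicate block, 0 genes passed and there were 468 genes with an unadjusted p under 0.05, 0 of the 49 among them, and the median stayed at -0.091.

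The depth behind single values is known only roughly, and its part in the spread was not tested. The median 95% confidence interval of a lysosomal gene reached 1.70 on the log2 scale to either side. The causes of these changes were not tested.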
